A study of Mus musculus with 12 samples.

Results

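Receptors for the colony-stimulating factors, the interferons, interleukin-6 and interleukin-10 were followed in blood monocytes of TRIM33 and WT mice. The set was chosen by name rather than by measured values, though with earlier results of these data known. It held 10 genes: Csf1r, Csf2ra, Csf2rb, Csf3r, Ifnar1, Ifnar2, Ifngr1, Ifngr2, Il6ra and Il10ra. Each had 1 feature on the array, numbered by its Entrez gene, and all 10 of 10 were measured, among 23279 named genes. The 12 single-colour arrays comprised 6 labelled TRIM33 and 6 labelled WT, all with the strain label C57BL/6 LyzCre and an age of 6 to 8 weeks. LyzCre places Cre recombinase under the lysozyme M promoter, which is active in monocytes, macrophages and granulocytes; the sources used here do not state whether the WT animals carried it too. The sort took CD115+ CD11b+ cells with high Ly6C. Of each genotype, 2 arrays are titled as mixes, without a statement of what was mixed, and 4 carry other titles. No label ties an array to 1 animal, and p-values therefore measure only how far arrays differ, which may be technical.

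These receptors let a monocyte read growth and inflammatory signals. CSF1R, which is the CD115 of the sort, is a receptor tyrosine kinase for CSF1 and IL-34 that maintains monocytes and macrophages. The other 9 genes encode chains of receptors that signal through bound JAK kinases and STAT factors: CSF2RA and CSF2RB form the GM-CSF receptor, CSF3R is the G-CSF receptor of the granulocyte lineage, IFNAR1 and IFNAR2 form the type I interferon receptor, and IFNGR1 and IFNGR2 the interferon-gamma receptor. IL6RA binds interleukin-6 and signals through the shared chain IL6ST, and IL10RA binds interleukin-10, which restrains inflammation, and signals with IL10RB.

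Upstream sequence was examined because 7 of the receptor genes differed together between groups of arrays, as described further on. The RefSeq promoter table (build GRCm38.p6) held 7 of the 10 genes, and the 250 bases before the start were searched on both strands. The PU.1 core GAGGAA, named for the factor encoded by Spi1 that acts on many myeloid promoters, was present in 4 of these 7 (Csf2ra, Csf3r, Ifnar1 and Il6ra), against 23.3% of 32851 promoters of the same length. Sequences are shown for genes that stood lower on every array of the one group, Csf3r (chr4:126024409-126024658, plus strand), Il6ra (chr3:89913197-89913446, minus strand) and Ifngr1 (chr10:19591699-19591948, plus strand). Csf2ra (chr19:61228419-61228668, minus strand) and Ifnar2 (chr16:91372533-91372782, plus strand) are shown as genes whose groups overlapped. All run 5′ to 3′ in the direction of the gene, and capitals mark matches to GAGGAA or its reverse complement.
Csf3r: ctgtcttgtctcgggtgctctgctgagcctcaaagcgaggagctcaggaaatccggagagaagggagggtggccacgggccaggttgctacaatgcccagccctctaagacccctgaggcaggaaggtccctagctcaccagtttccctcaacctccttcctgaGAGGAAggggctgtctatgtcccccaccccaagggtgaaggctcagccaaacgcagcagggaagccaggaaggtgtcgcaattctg
Il6ra: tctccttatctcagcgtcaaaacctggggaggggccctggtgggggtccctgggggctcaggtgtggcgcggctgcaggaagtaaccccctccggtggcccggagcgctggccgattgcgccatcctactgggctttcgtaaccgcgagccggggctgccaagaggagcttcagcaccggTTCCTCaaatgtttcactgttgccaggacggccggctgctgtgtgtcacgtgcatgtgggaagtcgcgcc
Ifngr1: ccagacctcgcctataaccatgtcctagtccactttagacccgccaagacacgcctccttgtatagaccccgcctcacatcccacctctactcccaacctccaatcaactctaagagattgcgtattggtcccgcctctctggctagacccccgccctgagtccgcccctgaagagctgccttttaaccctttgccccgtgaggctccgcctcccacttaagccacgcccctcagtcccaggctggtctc
Csf2ra: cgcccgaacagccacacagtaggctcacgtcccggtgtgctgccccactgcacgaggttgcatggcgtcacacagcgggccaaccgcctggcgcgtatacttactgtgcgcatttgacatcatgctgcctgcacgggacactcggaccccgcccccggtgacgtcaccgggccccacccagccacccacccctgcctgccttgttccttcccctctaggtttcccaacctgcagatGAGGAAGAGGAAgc
Ifnar2: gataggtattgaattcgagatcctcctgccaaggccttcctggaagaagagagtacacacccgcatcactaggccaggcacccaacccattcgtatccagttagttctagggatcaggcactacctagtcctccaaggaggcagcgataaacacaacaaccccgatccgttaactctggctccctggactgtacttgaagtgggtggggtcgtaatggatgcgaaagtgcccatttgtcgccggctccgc
Matches were found in genes of both kinds: Csf3r and Il6ra each held 1, Csf2ra held 2 and Ifngr1 and Ifnar2 held 0. Of the genes searched but not shown, Ifnar1, whose groups overlapped, held 1. Ifngr2, lower on every array of the one group, held 0. Csf1r, Csf2rb and Il10ra had no entry. Of the other motifs, TTCNNNGAA, the form bound by STAT factors, was present in 1 of the 7 (Ifnar2) and in 7.02% of all promoters. CCGGAAGT, a form bound by other ETS factors, whose match here did not overlap GAGGAA, was present in 1 of the 7 (Ifnar1) and in 2.88% of all. The C/EBP form TTGCNNAA (9.56% of all) and the interferon-stimulated element, GAAA repeated after a gap of 2 bases (2.98% of all) were present in 0 of the 7. A match describes the letters and is no evidence of binding.

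The Trim33 feature averaged 6.13 ± 0.0653 on TRIM33 arrays and 6.92 ± 0.0794 on WT arrays (SD, n = 6 each, log2 RMA value), a difference of -0.79 (SE 0.0671, limma with Benjamini-Hochberg adjustment, adjusted p = 0.000637). By overall similarity the 12 arrays split into 2 sets of 6, each holding 3 arrays of either genotype, with pairwise correlations from 0.986 to 0.992 for arrays of one set and from 0.955 to 0.967 across sets. The cycle-high set (TRIM33 4, 5 and 6, WT 1, 2 and 3) had cell cycle genes at a mean log2 level of 9.45 to 9.53 over 14 of 15 genes, against 4.86 to 5.90 on the cycle-low set (TRIM33 1, 2 and 3, WT 4, 5 and 6). All 4 mixes lie in the cycle-low set, beside 2 arrays that are not mixes. Xist read 9.01 to 10.2 on the cycle-high set and 3.36 to 3.64 on the cycle-low set, so set and sex-linked expression cannot be told apart. Of the genes of the gate, Ly6c2 read 12.2 to 12.4 on the cycle-high set and 12.3 to 12.5 on the cycle-low set, and Itgam (CD11b) 9.40 to 9.88 and 10.4 to 10.7. The receptor genes read between 7.63 and 11.1 on every array, against array medians of 4.16 to 4.25.

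Between the TRIM33 and WT arrays, 0 of the 10 receptor genes passed limma at an adjusted p of 0.05, whether genotype stood alone or the array set entered as a block, and 0 of 10 had an unadjusted p below 0.05 in either fit. Over all named genes, 0.0215% passed with genotype alone and 0.0387% with the block, and the unadjusted threshold was met by 3.07% and 5.28%. The difference was below 0 at 9 of 10 receptor genes, with a median of -0.05, against 55% and a median of -0.01 over all genes. Differences between the sets were much larger: at 7 of 10 receptor genes every cycle-high array read below every cycle-low array, against 6.59% of all genes, and at 0 of 10 every one read above, against 7.45%. Either way apart were 14% of all genes, and over all 12 arrays the genotypes were apart at 0 of 10 receptor genes, against 0.198% of all. The median receptor difference, cycle-high minus cycle-low, was -0.58, against 0.0015 over all genes. The sets were formed from all features, these genes included, so their differences are a description without a test. In sorted bulk RNA, fewer cells of a type and less RNA per cell cannot be told apart.

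**Figure D1:**
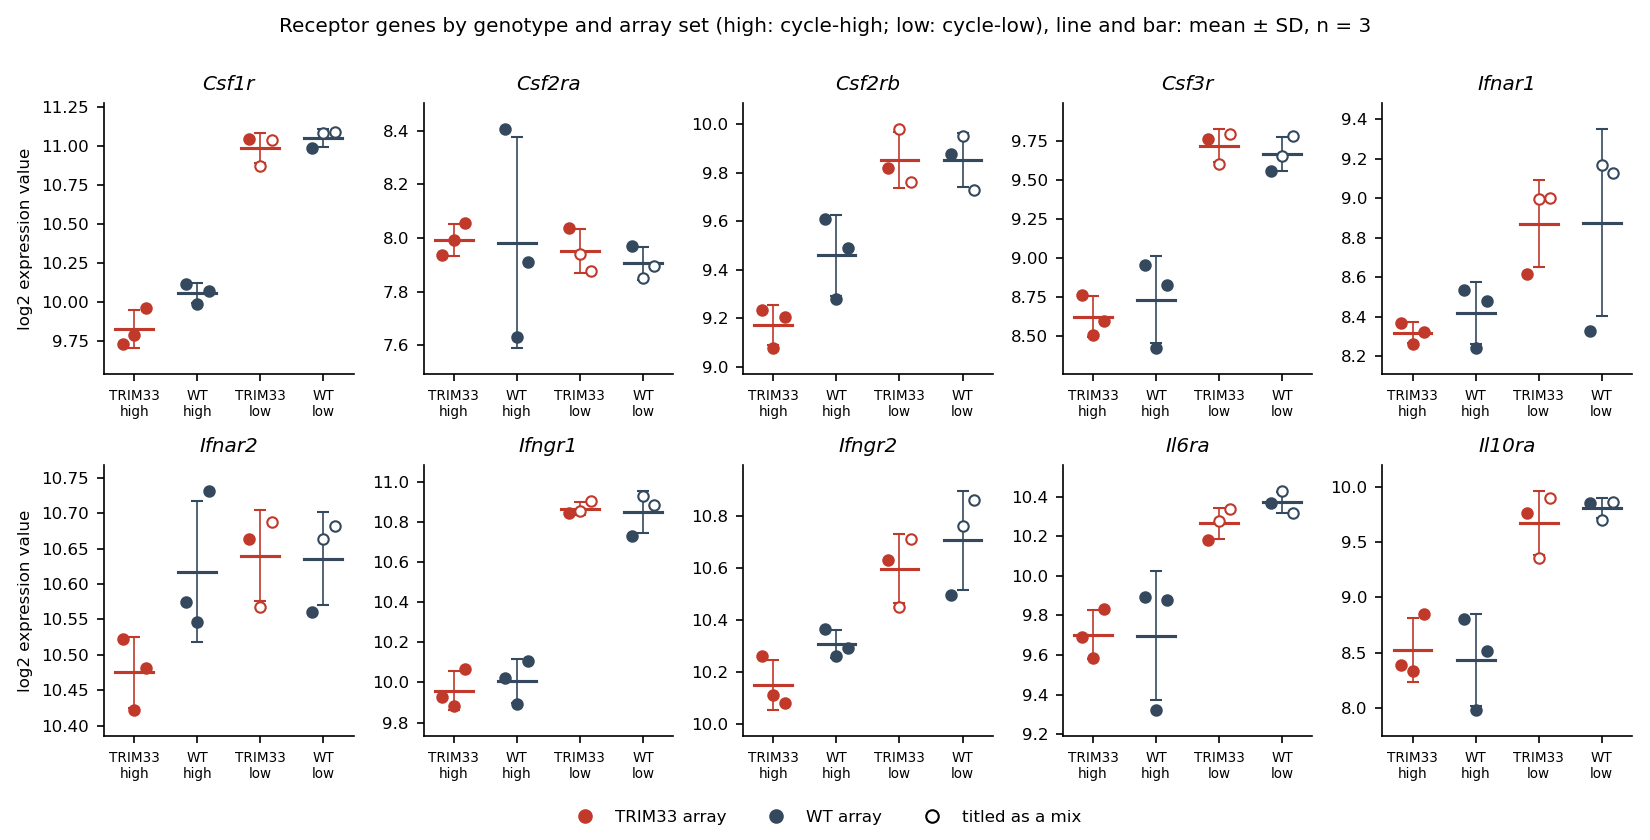
Log2 RMA value of each receptor gene on each of the 12 arrays, 1 panel per gene, grouped by genotype and array set (high, cycle-high; low, cycle-low), with line and bar for mean ± SD of 3 arrays, open circles for mixes and a vertical scale of its own in each panel. Il10ra, Csf1r, Csf3r and Ifngr1 split by array set with no overlap, while Csf2ra and Ifnar2 overlap.

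Csf1r, the receptor that defines the gate, read 9.73, 9.79 and 9.96 on the cycle-high TRIM33 arrays, against 10.12, 9.99 and 10.08 on the cycle-high WT arrays (log2 RMA values, as for all levels below). On the cycle-low set it read 11.04, 10.88 and 11.04 on TRIM33 arrays and 10.99, 11.08 and 11.09 on WT arrays. All cycle-high TRIM33 arrays were below all cycle-high WT arrays, whereas the genotypes overlapped in the cycle-low set. The mean was 9.95 ± 0.154 on the cycle-high set and 11.02 ± 0.0797 on the cycle-low set (SD, n = 6 each), a difference of -1.07 or 2.11-fold in size. In order, the levels ran from TRIM33 cycle-high (9.83 ± 0.121) through WT cycle-high (10.06 ± 0.0644) and TRIM33 cycle-low (10.99 ± 0.0960) to WT cycle-low (11.05 ± 0.0579; SD, n = 3 each), and only the cycle-low pair lay within its spread. Over all arrays TRIM33 minus WT was -0.15, with a standard error of 0.307 alone and 0.0788 with the set as a block (95% interval -0.32 to 0.02, limma adjusted p = 0.937). No other receptor gene had a smaller p with the block, and Csf1r did not pass.

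Csf2rb, the signalling chain shared by the receptors for GM-CSF, IL-3 and IL-5, read 9.24, 9.08 and 9.20 on cycle-high TRIM33 arrays, against 9.61, 9.28 and 9.49 on cycle-high WT arrays. Its cycle-low values were 9.82, 9.98 and 9.76 on TRIM33 arrays and 9.88, 9.95 and 9.73 on WT arrays. The genotypes were again apart in the cycle-high set, at a difference of -0.29 (SE 0.136, limma adjusted p = 0.962), and nearly equal in the cycle-low set, at 0.00017. The difference between these effects was -0.29 (SE 0.174, limma adjusted p = 0.996), which did not pass. Between the sets Csf2rb differed by -0.54, or 1.45-fold in size. Csf2rb2, a near-identical mouse copy that serves IL-3 and whose probes may share signal with it, also stood lower on every cycle-high array, by -0.56, with a genotype difference of 0.03 (SE 0.121 with the block).

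Csf2ra, the chain that binds GM-CSF, read 7.93, 7.99 and 8.05 on cycle-high TRIM33 arrays, against 8.41, 7.63 and 7.91 on cycle-high WT arrays. On the cycle-low set the values were 8.04, 7.94 and 7.88 on TRIM33 arrays and 7.97, 7.85 and 7.90 on WT arrays. Here the WT arrays of the cycle-high set held both the highest and the lowest value of all 12, and neither genotype nor set was apart. The sets differed by 0.06, so that Csf2ra was the one receptor gene not lower on the cycle-high set, though without the mixes the difference was -0.02. Csf3r read 8.76, 8.51 and 8.59 on cycle-high TRIM33 arrays, against 8.95, 8.42 and 8.82 on cycle-high WT arrays. On cycle-low arrays Csf3r read 9.77, 9.60 and 9.80 with TRIM33 and 9.56, 9.66 and 9.78 with WT. The sets were apart by -1.02, or 2.03-fold in size, and the genotypes overlapped in both. Neutrophil genes, whose cells use CSF3R, had a mean level of 6.01 to 6.63 over 13 of 13 genes on the cycle-high set and 5.07 to 6.45 on the cycle-low set, with TRIM33 2 highest of the cycle-low arrays. On TRIM33 2 Csf3r read 9.60, and without that array its set difference was -1.04. The part of neutrophils in the Csf3r difference was not tested.

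Ifngr1, the ligand-binding chain for interferon-gamma, read 9.93, 9.88 and 10.07 on cycle-high TRIM33 arrays, against 10.02, 9.89 and 10.11 on cycle-high WT arrays. The cycle-low values were 10.84, 10.85 and 10.91 on TRIM33 arrays and 10.73, 10.93 and 10.88 on WT arrays. The sets were apart by -0.87, or 1.83-fold in size, with SDs of 0.0961 on the cycle-high set and 0.0701 on the cycle-low set, while the genotypes overlapped in each. Ifngr2, the accessory chain, read 10.26, 10.11 and 10.08 on cycle-high TRIM33 arrays, against 10.37, 10.26 and 10.29 on cycle-high WT arrays. On the cycle-low set Ifngr2 read 10.63, 10.45 and 10.71 with TRIM33 and 10.49, 10.76 and 10.86 with WT. The cycle-high genotypes were apart by a margin that vanishes at this rounding, and the sets by -0.42, or 1.34-fold in size.

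Ifnar1, the low-affinity chain for type I interferon, read 8.37, 8.26 and 8.32 on cycle-high TRIM33 arrays, against 8.54, 8.24 and 8.48 on cycle-high WT arrays. On the cycle-low set it read 8.62, 8.99 and 9.001 on TRIM33 arrays and 8.33, 9.17 and 9.13 on WT arrays. Within the cycle-low set the lowest value of each genotype belonged to its 1 array not titled as a mix, and the set difference of -0.50 was -0.10 without the mixes. Ifnar2, the high-affinity chain, read 10.52, 10.42 and 10.48 on cycle-high TRIM33 arrays, against 10.57, 10.55 and 10.73 on cycle-high WT arrays. Its cycle-low values were 10.66, 10.57 and 10.69 on TRIM33 arrays and 10.56, 10.66 and 10.68 on WT arrays. The cycle-high genotypes were apart by -0.14, and the sets overlapped at a difference of -0.09. Ifnar2, Il10rb, Ifnar1 and Ifngr2 neighbour each other in this order on chromosome 16 (RefSeq, GRCm38.p6, protein-coding genes). In the same order their set differences were -0.09, -0.36, -0.50 and -0.42, and their genotype differences -0.07, -0.14, -0.05 and -0.13, so that all 4 had the same sign in both comparisons. A genotype difference below 0 was also found at 55% of all genes. That of Ifnar1 changed sign in 4 of 12 fits of genotype alone with 1 array left out.

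Il10ra had the largest set difference of the 10 genes. It read 8.38, 8.34 and 8.85 on cycle-high TRIM33 arrays, against 8.81, 7.98 and 8.51 on cycle-high WT arrays. The cycle-low values were 9.77, 9.35 and 9.90 on TRIM33 arrays and 9.86, 9.70 and 9.87 on WT arrays. The mean was 8.48 ± 0.325 on the cycle-high set and 9.74 ± 0.205 on the cycle-low set (SD, n = 6 each), a difference of -1.26 or 2.40-fold in size, and the genotypes overlapped in both sets. Il6ra read 9.69, 9.58 and 9.83 on cycle-high TRIM33 arrays, against 9.89, 9.32 and 9.88 on cycle-high WT arrays. On the cycle-low set Il6ra read 10.18, 10.28 and 10.34 with TRIM33 and 10.37, 10.43 and 10.32 with WT. The sets were apart by -0.62, or 1.53-fold in size. WT 2 was the lowest array of the cycle-high set at both genes and at 5 of the 10 receptor genes, and WT 1 was the highest at 7 of 10.

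**Figure D2:**
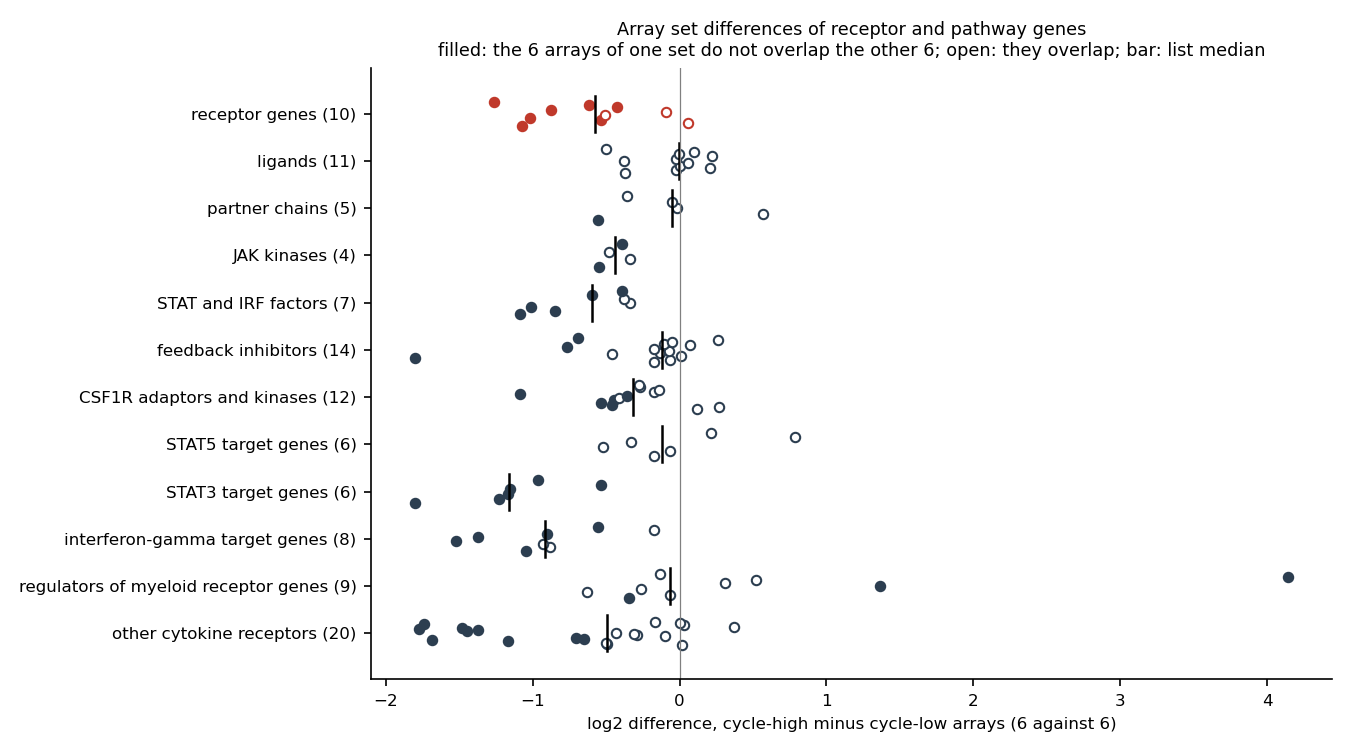
Log2 difference between the array sets, cycle-high minus cycle-low (n = 6 each), for each of the 10 receptor genes and each gene of the 11 pathway lists, filled where the sets do not overlap, with a bar at each list's median. Receptor differences run from -1.26 at Il10ra to 0.06 at Csf2ra.

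Marker genes of most other cell populations also differed between the sets. Myeloid precursor genes had a mean level of 8.70 to 9.05 over 7 of 7 listed genes on the cycle-high set and 4.505 to 5.26 on the cycle-low set, and Mpo, the peroxidase of granule-forming precursors, read 10.9 to 11.5 and 4.74 to 5.15, so the cycle-high arrays carried precursor genes beside those of the gate. Erythroid genes averaged 3.16 to 3.78 over 3 of 6 listed genes on the cycle-high set and 7.52 to 8.61 on the cycle-low set, and Hbb-bs, a globin, had 1.502 to 3.30 and 10.6 to 11.8. Alas2 was also lower on every cycle-high array (-5.32), whereas Klf1 overlapped (0.14). Dendritic cell genes averaged 5.51 to 6.16 over 8 of 8 genes on the cycle-high set and 6.56 to 7.54 on the cycle-low set. Of these 8, 4 were lower on every cycle-high array: H2-Aa (-3.38), H2-Ab1 (-3.07), Cd74 (-2.76) and Flt3 (-1.48). The other 4 overlapped: Cd209a (-1.37), Zbtb46 (0.03), Xcr1 (-0.04) and Clec9a (0.08). Platelet genes averaged 3.90 to 4.06 on the cycle-high set and 4.99 to 6.49 on the cycle-low set over 5 of 5 genes. Of these 5, 3 were lower on every cycle-high array, while Itga2b (-0.34) and Gp1bb (-0.15) overlapped. Ly6C-low monocyte genes averaged 6.56 to 7.004 over 6 of 7 genes on the cycle-high set and 7.71 to 8.55 on the cycle-low set, and those of Ly6C-high monocytes 10.5 to 10.7 and 10.9 to 11.3 over 7 of 8 genes. Of the 6 Ly6C-low genes, 4 were lower on every cycle-high array and 2 overlapped. Only 2 of the 7 Ly6C-high genes were so, Ccr2 (-0.29) and Itgam (-0.83). The other 5 overlapped: Vcan (-1.51), Plac8 (-0.32), Chil3 (-0.15), Ly6c2 (-0.04) and F13a1 (0.16). B cell genes averaged 4.30 to 4.64 over 4 of 5 genes on the cycle-high set and 4.59 to 5.42 on the cycle-low set, with overlap, and T cell genes 3.09 to 3.45 and 3.61 to 4.197 over 5 of 6 genes. Of the 5 T cell genes, 2 were lower on every cycle-high array (Cd3d and Cd3g) and 3 overlapped. Natural killer cell averages overlapped as those of B cells did, at 3.20 to 3.83 on the cycle-high set and 3.72 to 4.10 on the cycle-low set over 5 of 5 genes. Eosinophil and basophil genes averaged 3.90 to 4.34 over 6 of 6 genes on the cycle-high set and 3.18 to 3.34 on the cycle-low set, and plasmacytoid dendritic cell genes 5.61 to 6.09 and 6.44 to 6.75 over 4 of 4 genes. Of the 6, only Prg2 (2.65) and Mcpt8 (1.39) were higher on every cycle-high array, and 4 overlapped. Of the 4, Tcf4 (-0.95) and Bst2 (-0.52) were lower on every cycle-high array, while Siglech (-0.37) and Ccr9 (-0.63) overlapped. The part of these populations in the receptor differences was not tested.

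Within the sets, all 3 TRIM33 arrays read below all 3 WT arrays at 4 of 10 receptor genes in the cycle-high set (Csf1r, Csf2rb, Ifnar2 and Ifngr2), against 5.86% of all genes, and above them at 0 of 10, against 4.41%. In the cycle-low set the genotypes overlapped at 10 of 10 receptor genes, with 5.43% of all genes below and 4.61% above. Marker averages of some other cells differed along genotype too. In the cycle-high set eosinophil and basophil genes averaged 4.09 to 4.34 on TRIM33 arrays and 3.90 to 3.93 on WT arrays. Only Prg2 of these genes was apart in that set, at 7.03 to 7.53 against 4.81 to 6.05. Over all arrays 4 of the 6 had a difference below 0. In the cycle-low set natural killer cell genes averaged 3.72 to 3.85 on TRIM33 arrays and 4.05 to 4.10 on WT arrays. Only these averages were apart: Ncr1, Klrb1c, Klre1, Eomes and Gzma each overlapped between the genotypes there. Neutrophil genes there averaged 5.29 to 6.45 on TRIM33 arrays and 5.07 to 5.19 on WT arrays. Of these, Stfa2l1 (5.88 to 6.87 against 2.48 to 3.24) and Cxcr2 were higher on all TRIM33 arrays, Ngp was lower and the others overlapped. At S100a8, S100a9 and Lcn2, TRIM33 1 was the lowest array of the set. Over all arrays TRIM33 minus WT was below 0 at 8 of 8 dendritic cell, 6 of 6 Ly6C-low monocyte and 5 of 5 natural killer cell genes and above 0 at 10 of 13 neutrophil genes (median 0.43), with 0 called by limma, and their part in the receptor values was not tested. An exact two-sided test of 3 arrays against 3 cannot give a p below 0.1. Limma within the cycle-high set called 0 of 10 receptor genes (0.0129% of all genes), as did limma within the cycle-low set (0.0344%). An unadjusted p below 0.05 was met by 0 of 10 in the cycle-high set (4.99% of all genes), 0 of 10 in the cycle-low set (4.57%) and 0 of 10 for the interaction (4.21%). The genotype effect differed between the sets at 0 of 10 receptor genes by the interaction term, which 0.0043% of all genes passed. Trim33 itself, at -0.79 in each set, did not pass within the sets either (limma adjusted p = 0.227 in the cycle-high and 0.134 in the cycle-low set). The interaction estimates, cycle-high minus cycle-low, ran from -0.29 at Csf2rb to 0.23 at Il10ra. The block intervals bound what the arrays could show: for Csf3r the difference was -0.03 (95% interval -0.24 to 0.19), for Ifngr1 -0.02 (-0.18 to 0.15), for Il6ra -0.05 (-0.27 to 0.17) and for Il10ra -0.02 (-0.33 to 0.29). For Csf2ra it was 0.03 (-0.21 to 0.26), for Csf2rb -0.14 (-0.34 to 0.05), for Ifnar1 -0.05 (-0.34 to 0.24), for Ifnar2 -0.07 (-0.23 to 0.09) and for Ifngr2 -0.13 (-0.32 to 0.05). All 10 intervals include 0.

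**Figure D3:**
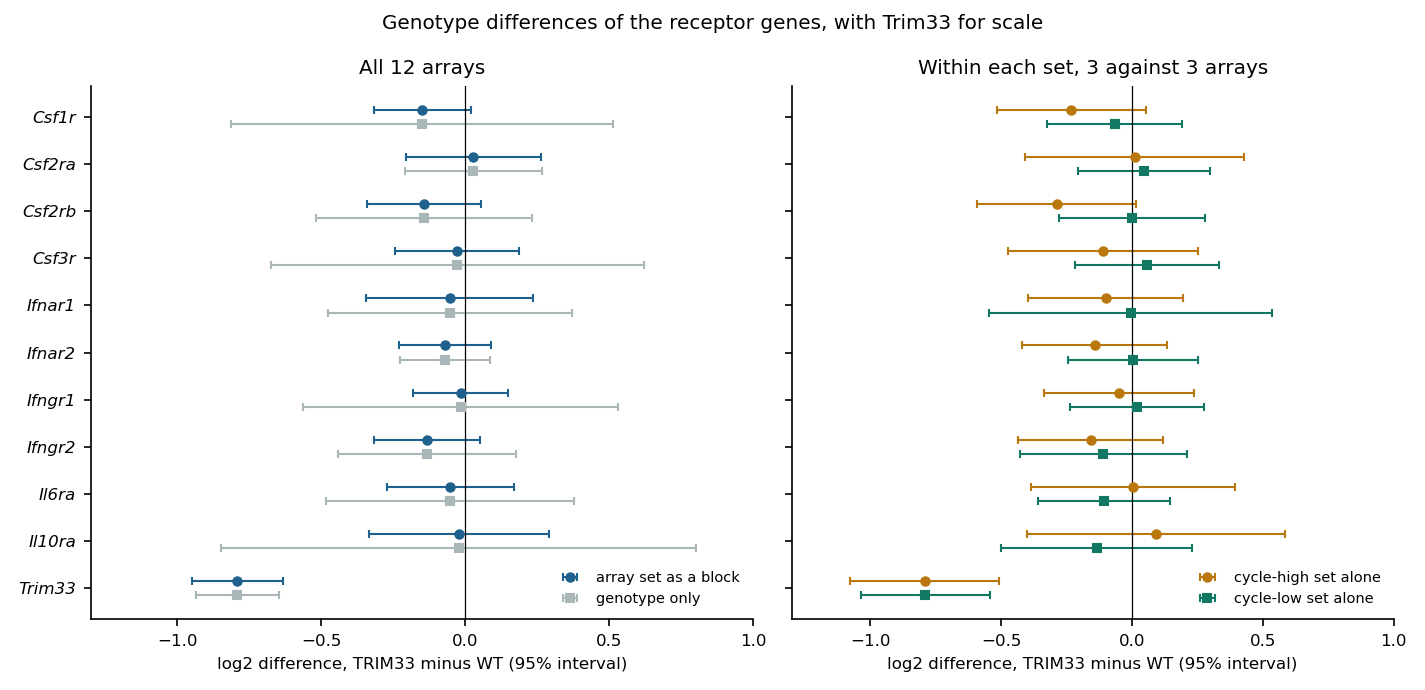
Log2 difference, TRIM33 minus WT, with 95% intervals for each receptor gene and Trim33, over all 12 arrays in a fit with the array set as block and one of genotype alone (left) and within each set of 3 against 3 arrays (right). All receptor intervals include 0, whereas those of Trim33, at -0.79 over all arrays, do not.

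Within the cycle-low set, the 4 mixes were set against the 2 other arrays with genotype as a covariate, a comparison added after the values were seen. Ifnar1 averaged 9.07 ± 0.0893 on the mixes (SD, n = 4) and 8.47 ± 0.204 on the other arrays (SD, n = 2), a difference of 0.60 (SE 0.137, 95% interval 0.28 to 0.92, limma adjusted p = 0.179). All 4 mixes were above both other arrays, and the difference did not pass; without WT 4 it was 0.38 and without TRIM33 1 it was 0.82. The other 9 receptor genes lay between -0.11 and 0.13. Ifnar1 was the 1 of 10 receptor genes with an unadjusted p below 0.05, against 11.1% of all genes, and limma called 0 of 10, against 0% of all genes. Il6st, the shared chain of the interleukin-6 receptor, differed by 0.67 (SE 0.128, adjusted p = 0.137).

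**Figure D4:**
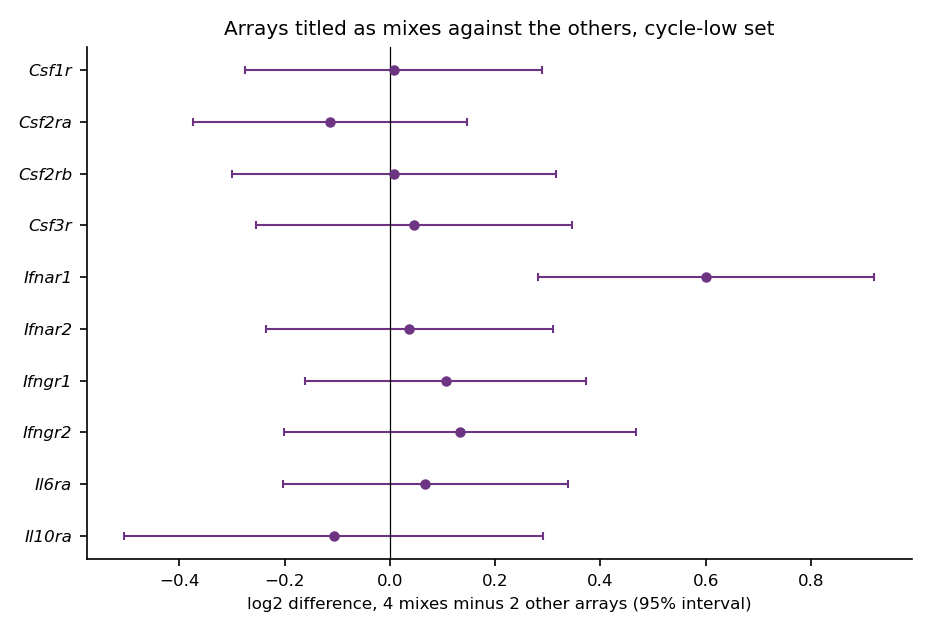
Log2 difference of each receptor gene between the 4 mixes and the 2 other arrays of the cycle-low set, with its 95% interval. Ifnar1, at 0.60, is the one receptor gene whose interval lies above 0.

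The wider pathway was read from 11 lists holding 104 distinct genes, of which 97 were measured. Between TRIM33 and WT, limma called 0 of 97 in either fit, and 5 of 97 had an unadjusted p below 0.05 with the block (3 higher and 2 lower), against 5.28% of all genes. Those higher were Usp18, an interferon-induced brake on IFNAR2 signalling, at 0.43 (SE 0.0984, adjusted p = 0.392), Stat2, a factor of the type I interferon response, at 0.44 (SE 0.114, adjusted p = 0.471), and Socs2, a STAT5-induced inhibitor, at 0.30 (SE 0.127, adjusted p = 0.906). Within the cycle-high set 8 of 97 read higher on all TRIM33 than on all WT arrays (4.41% of all genes) and 6 lower (5.86%), and within the cycle-low set 5 higher (4.61%) and 7 lower (5.43%). Usp18 and Stat2 were the 2 of 97 higher in both sets, and 0 were lower in both. The share of all genes apart in both sets was not counted, so these counts have no rate to stand against. The lower ones were Plcg2, a phospholipase acting below CSF1R, at -0.20 (SE 0.0784, adjusted p = 0.866), and Pias3, an inhibitor of STAT3 named here after its value was seen, at -0.26 (SE 0.115, adjusted p = 0.936). With genotype alone, 1 of 97 (Socs2) had an unadjusted p below 0.05.

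By role, the genes with the smallest p in each list were the following, all without a call by limma. Among 11 ligands, Il34 differed by 0.13 and Il6 by -0.12, TRIM33 minus WT. Both genes read low, at 2.93 to 3.41 and 2.21 to 2.82, against array medians of 4.16 to 4.25. The 5 partner chains gave Il6st at -0.20 and Il10rb at -0.14, and the 4 JAK kinases Jak1 at -0.14 and Jak3 at 0.15. Of 7 STAT and IRF factors, Stat5a differed by -0.22 beside Stat2. These sizes compare with standard errors of 0.0802 for Jak1 and 0.159 for Il6st with the block. The adaptor Grb2, among 12 genes acting below CSF1R, differed by -0.10, and Cish, a STAT5 target among 6, by 0.27. The 6 STAT3 targets gave Il1rn at -0.13 and Il4ra at -0.08, and the 8 interferon-gamma targets Cd274 (PD-L1) at 0.20 and Ciita, the regulator of MHC class II, at -0.32. Of 9 regulators of myeloid receptor genes, Klf4 differed by -0.30 and Cebpb by -0.17. The 20 other cytokine receptors gave Epor at 0.18 and Il1r2, a decoy for IL-1, at 0.47. Single arrays were also left out, in plain differences of means that did not hold the array set. Of the 22 genes named here and just above, 15 then moved by over 1.5 times or changed sign. Leaving out 1 array also unbalances the sets, so its own weight and the set difference cannot be told apart here. Il1rn and Il4ra, for example, differed between the sets by -0.53 and -1.17. Cish was 0.11 without TRIM33 3, Il1r2 0.23 without TRIM33 1, Jak3 0.03 without WT 2 and Ciita -0.63 without WT 1, and 2 changed sign, Il1rn (0.0060 without WT 4) and Il4ra (up to 0.095). The list medians lay between -0.10 and 0.04.

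Between the array sets, 35 of the 97 pathway genes read lower on every cycle-high array, 2 read higher on every one and 60 overlapped, with a median difference of -0.36, against 6.59% lower, 7.45% higher and a median of 0.0015 over all genes. The single genes that follow were picked after their values were seen. All 6 STAT3 targets were lower on every cycle-high array (median -1.16), where 6.59% of all genes were, among them Socs3, an inhibitor of gp130 signalling, at -1.80 and Bcl3 at -1.23. Of 8 interferon-gamma targets 5 were lower (median -0.92), with Ciita at -1.52, Gbp2 at -1.37 and Irf1 at -1.05. The STAT and IRF factors had 5 of 7 lower, Stat2 at -1.09 and Stat3 at -0.85 among them, and the JAK kinases 2 of 4, Jak1 at -0.55 and Tyk2 at -0.39. Ligands and STAT5 targets had 0 of 11 and 0 of 6 apart in either direction. Among the ligands, however, Il34, Csf2, Csf3, Il3, Ifnb1, Ifng and Il6 read below the lowest array median, 4.16, on every array. At such levels a difference could hardly be seen.

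Beside the same 6.59% of all genes, 3 of 14 feedback inhibitors were lower, with Ptpn1, a phosphatase acting on JAK kinases, at -0.77 and Usp18 at -0.69 beside Socs3. Among 12 adaptors and kinases below CSF1R 5 were lower, with the Src-family kinase Fgr at -1.09. The other cytokine receptors had 9 of 20 lower, Tgfbr2 at -1.77, Lifr at -1.74, Il13ra1 at -1.69 and Tnfrsf1b at -1.45 among them. Partner chains had 1 of 5 lower (Csf2rb2), while Il3ra, the IL-3-binding chain, differed by 0.57 with overlap. The regulators held the 2 genes higher on every cycle-high array, Myb, a progenitor factor, at 4.14 and Cebpe, a granulocyte factor, at 1.36, and 1 lower, Spi1 (PU.1), at -0.35.

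Genes whose levels ran most like each receptor were sought within each set of 6 arrays, over 23278 genes, by the lower of the Pearson correlations in the 2 sets. The points share the arrays and their normalization, and with 6 arrays and this many genes high values arise readily, so these are descriptions. Csf1r ran most like Cx3cr1, the fractalkine receptor (r = 0.926 in the cycle-high and 0.945 in the cycle-low set), and Tnfrsf1b, a TNF receptor (0.938 and 0.881). The closest for Csf2ra were Thbs1 (0.933 and 0.959) and Zcchc8 (0.915 and 0.908), for Csf2rb Mir132 (0.913 and 0.896) and Adgrf4 (0.884 and 0.930), and for Csf3r Tmem159 (0.984 and 0.929) and Rnf122 (0.908 and 0.917). Ifnar1 was nearest to Vps39 (0.932 and 0.983) and Usb1 (0.921 and 0.943), and Ifnar2 to Steap3 (0.964 and 0.935) and Swap70 (0.933 and 0.981). Ifngr1 was nearest to Tmem168 (0.946 and 0.914) and Apaf1 (0.965 and 0.909), and Ifngr2 to Tmem26 (0.943 and 0.956) and Fam168a (0.930 and 0.948). Il6ra ran most like Mrfap1 (0.926 and 0.921) and Pprc1 (0.904 and 0.968), and Il10ra most like Neurl3 (0.956 and 0.971) and Epn1 (0.954 and 0.945). No receptor gene was among the nearest of another.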

How the data were processed

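RNA of sorted blood monocytes was measured on 12 single-colour arrays, 6 TRIM33 and 6 WT. Per the labels' protocols, 900 pg of total RNA was amplified with the NuGEN Ovation Pico V2 method. The labels' treatment text describes CD4 T cells, whereas source names and design give monocytes, which were followed. The authors deposited log2 values, 1 per gene feature. RMA and Partek are named in the submitters' processing notes; the sources used here do not give versions, chip definition or build. RMA makes distributions alike between arrays, which can conceal a change common to most genes and compresses differences of dim genes. Arrays carry no counting depth, so their number limits precision.

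Of 24479 features, 23281 carried 1 symbol, 0 several and 1198 none, and 23156 symbols were matched by Entrez number in a RefSeq table (GRCm38.p6). For 2 symbols with several features the one of higher mean was kept, leaving 23279 genes. Tests used limma 3.58.1 (lmFit, eBayes; R 4.3.3), genotype only, with Benjamini-Hochberg adjustment over all genes at 0.05. Array sets came from average linkage on correlation distance over the whole table, with genotype not used. Fits with the set as block, inside each set, with an interaction, on mixes or other arrays alone, under other normalizations and with each array left out were run beside it. The gene test was tested on simulated data. Figures used matplotlib 3.10.9 in Python 3.11.15.

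Named genes were the 10 receptors, Trim33, per pathway list those called or the 2 with the smallest p, and per receptor the 2 of highest likeness. Others were picked after their values were seen. Members, lists and tests were chosen with earlier results of these data known. Some listed genes are not analysed here.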

Additional observations from a re-analysis of the deposited data

Results flagged for a closer look

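Of 64 groups of 6 arrays (32 genes, each genotype), 3 held an array far from the others. Chance gives about 1 in 20 where the 6 arrays are alike, but each group pooled both array sets. Il6st, the shared chain of the interleukin-6 receptor, read 8.72 on WT 4, the WT array of the cycle-low set that is not a mix, against 9.41 to 9.61 on the other WT arrays. Cish, a STAT5-induced inhibitor, read 4.76 on TRIM33 3, against 3.68 to 4.05 on the other TRIM33 arrays. Without TRIM33 3 its genotype difference of 0.27 was 0.11, in plain means that did not hold the array set. On WT 1 it read 4.22, against 3.55 to 3.68 on the other WT arrays. None of the 10 receptor genes had such an array in either genotype. At 7 of 10 the sets were apart and widened the range, so an array out of place within its set could hardly be flagged.

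Jak3 differed between genotypes in opposite directions in the sets, by 0.41 in the cycle-high set and by -0.10 in the cycle-low set. The difference between these effects was 0.51 (SE 0.277, limma interaction, adjusted p = 0.996) and did not pass.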

How the results depend on the processing

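Of 180 receptor fits in 18 settings other than leaving out an array, 0 passed and 10 turned the direction of a small difference, TRIM33 minus WT. In the cycle-low set alone Csf2rb was 0.00017, Csf3r 0.056, Ifnar2 0.0042 and Ifngr1 0.018. In the cycle-high set alone Il6ra was 0.0041 and Il10ra 0.091. Without the mixes Il10ra was 0.045, with and without the set as a block. On the mixes alone Csf2rb was 0.030, whether or not the number of the mix was a replicate block. Deviations of same-numbered mixes from their genotype mean correlated at 0.118. With 2 mixes per genotype both pairs give the same value by construction, so pairing could not be shown. Leaving out 1 array turned 40 of 240 fits, and 0 passed: with genotype alone and with the block, Csf2ra ran from -0.034 to 0.12 and -0.048 to 0.13, Csf3r from -0.18 to 0.11 and -0.087 to 0.031, Ifnar1 from -0.13 to 0.052 and -0.18 to 0.0073, Ifngr1 from -0.12 to 0.091 and -0.045 to 0.011, Il10ra from -0.25 to 0.13 and -0.13 to 0.062; Il6ra turned with genotype alone, from -0.19 to 0.028. The lowest adjusted p of a receptor gene in any of these fits was 0.845.

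The count of genes called over the whole array depended more on the setting: 5 with genotype alone, 9 with the set as a block, 3 in the cycle-high and 8 in the cycle-low set, 0 without the mixes (9 with the block added), 10 on the mixes with the replicate block and 3 without moderation. Leaving out 1 array gave 5 to 9 with genotype alone (9 without TRIM33 4) and 9 to 15 with the block. Between mixes and other arrays 0 genes were called, 41 without the genotype term, 61 with an intensity trend and 0 to 7 without 1 array. The count of 7 receptor genes apart between sets was 7 or 8 under all alternatives run (8 without WT 4). Of the set differences only that of Ifnar1 moved beyond its spread, to -0.10 without the mixes. The cause was not tested.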
